A study of Mus musculus with 7 samples.

Results

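Isl1, 3 further LIM-homeodomain transcription factors (Lhx2, Lhx6 and Lhx9), the LIM-only proteins Lmo1 to Lmo4 and the LIM-domain-binding cofactors Ldb1 and Ldb2 were followed in the ventrolateral ventromedial hypothalamus (VMHvl) of female mice. These 10 genes were taken by symbol from 48321 counted genes. They were chosen by gene family with the difference between estrogen-treated and control mice already known, and the EB-against-vehicle values of Isl1 selected the family. Their values in that comparison are therefore given as a description.

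All 7 mice were ovariectomized females on a mixed background derived from a floxed Esr1 line of 129/Sv ancestry. The labels give no age and do not say whether these mice carry the floxed allele. One group of 3 mice received vehicle (VEH) and the other group of 4 mice received 1 µg of estradiol benzoate (EB), an estradiol ester, under the skin. The VMHvl was dissected by hand 4 hours later, and each library holds the RNA of 1 mouse. Library totals ran from 21037303 to 33302293 counts. The comparison asks which VMHvl transcripts differ soon after estrogen is returned to a mouse without ovaries.

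A LIM domain is a zinc-binding fold that holds other proteins rather than DNA. LIM-homeodomain factors carry LIM domains beside a DNA-binding homeodomain and set the identity of many neuron types. Ldb1 and Ldb2 form dimers that grip LIM domains and so bridge these factors into larger complexes. LIM-only proteins have LIM domains without a homeodomain and can compete for Ldb. In the hypothalamus Isl1 is known for its part in forming arcuate neurons, the neighbours of the VMH, including those that make Pomc, Agrp, Ghrh or Sst.

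The start of the Isl1 gene lies at the upper end of chr13:116298281-116309689 (GRCm38, minus strand, ENSMUSG00000042258.13), a gene with 5 annotated transcripts. The nearest protein-coding genes are Itga1, 1196316 bases away, and Parp8, 545130 bases away. The 250 bases before the start of Isl1 are shown because Isl1 has the largest EB difference of the 10 genes. Those of Lmo3 are shown as the other gene whose groups did not overlap, and those of Lmo1 for its homeodomain motif. All 3 are on the minus strand of GRCm38, written 5′ to 3′ from RefSeq, at chr13:116309689-116309938, chr6:138581969-138582218 and chr7:109175208-109175457. Capitals mark matches on either strand to 6 motifs: the estrogen response element (GGTCA and TGACC with any 3 bases between), its half-site GGTCA, which the whole element contains, the AP-1 site TGANTCA, the homeodomain core TAATTA, the Sp1 site GGGCGG and the CCAAT box.

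Isl1: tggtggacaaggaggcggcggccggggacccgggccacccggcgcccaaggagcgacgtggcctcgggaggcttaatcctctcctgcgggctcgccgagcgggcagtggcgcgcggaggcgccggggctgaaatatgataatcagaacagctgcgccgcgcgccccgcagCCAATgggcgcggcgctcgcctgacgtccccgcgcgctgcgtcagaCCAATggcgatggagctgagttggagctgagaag
Lmo3: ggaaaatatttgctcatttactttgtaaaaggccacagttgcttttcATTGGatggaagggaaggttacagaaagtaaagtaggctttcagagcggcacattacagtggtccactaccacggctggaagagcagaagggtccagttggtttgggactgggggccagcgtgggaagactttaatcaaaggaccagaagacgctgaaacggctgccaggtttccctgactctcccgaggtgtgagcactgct
Lmo1: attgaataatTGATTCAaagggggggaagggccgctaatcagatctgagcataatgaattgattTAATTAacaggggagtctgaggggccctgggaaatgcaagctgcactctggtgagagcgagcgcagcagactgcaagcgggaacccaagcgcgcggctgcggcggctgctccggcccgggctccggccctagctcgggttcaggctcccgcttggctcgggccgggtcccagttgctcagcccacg

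The Isl1 stretch was 71.2% G and C, against a median of 52.4% over 32841 promoter windows, and its only matches were 2 CCAAT boxes. The Lmo3 stretch was 50% G and C and held 1 CCAAT box. RefSeq windows were at hand for 8 of the 10 genes, 16 windows in all, some of which overlap. The whole estrogen response element was in 0 of these 16 windows and in 0.0639% of all windows, and the half-site was in 3 of 16, those of Lhx6 and Lmo4, against 35.2% of all. TAATTA was in the 2 overlapping Lmo1 windows, against 4.84% of all windows. The other shares over all windows were 6.75% for AP-1, 32.7% for Sp1 and 33.9% for CCAAT. These matches describe letters in the window and show no binding.

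Isl1 stood at 53.3, 87.8 and 60.7 CPM (counts scaled to library size with TMM factors) in vehicle 1 to 3. In EB 1 to 4 it stood at 26.7, 33.8, 32.1 and 26.3 CPM. Every EB mouse was below every vehicle mouse, and the highest vehicle mouse stood further from the others than the whole EB range. The means were 67.3 ± 18.2 CPM with vehicle (SD, n = 3) and 29.7 ± 3.79 CPM with EB (SD, n = 4), which is 2.27-fold lower with EB (log2 −1.18 ± 0.16, SE from edgeR). The raw counts behind these values ran from 638 to 2772 in a library. In bulk tissue, fewer Isl1 cells and less Isl1 RNA per cell cannot be told apart. Leaving out vehicle 2, the highest library, gave a log2 difference of −0.94, and leaving out any 1 library gave −0.94 to −1.33.

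Among the 10 genes, edgeR called Isl1 lower (Benjamini-Hochberg adjustment across the 18387 tested genes, threshold 0.05) and called 0 higher. DESeq2 and limma-voom also called 1 each, Isl1. Over all tested genes 0.207% were called lower and 0.919% were called in either direction. Since this contrast chose the genes, nothing is read from that count. All 10 passed the filter on low counts. The estimate was negative for 6 of the 10, with a median log2 difference of −0.08, beside a median of −0.01 and 51.7% negative over all tested genes. The groups did not overlap in 2 of the 10, Isl1 and Lmo3, both lower with EB, against 9.1% of all tested genes in either direction and 3.99% lower. Lmo3 reached this by the narrowest of gaps, as its values below show.

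**Figure D1:**
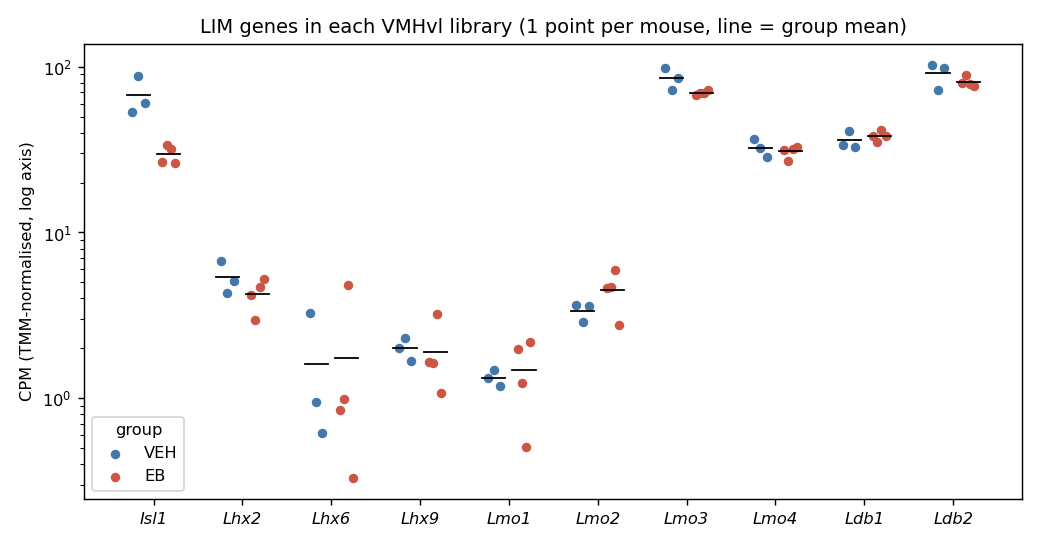
Level of each gene in each library (CPM, log axis), with 1 point per mouse, blue for vehicle and red for EB, and a line at each group mean. The 4 EB points of Isl1 lie between 26.3 and 33.8 CPM, all below the vehicle points, while the groups of 8 of the 10 genes overlap.

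The other LIM-homeodomain members were present at far lower levels than Isl1. Lhx2, which patterns the forebrain and keeps tanycytes in their state, stood at 6.76, 4.34 and 5.11 CPM with vehicle and 4.21, 2.96, 4.68 and 5.27 CPM with EB. Its groups overlapped, with a log2 difference of −0.34 ± 0.25. Markers of tanycytes and ependyma, 8 genes, summed to 19.1 to 34.7 CPM with vehicle and 22.3 to 38.3 CPM with EB, with Rax, a defining gene of tanycytes, at most 0.709 CPM in a library. Their part in the Lhx2 values was not tested.

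Lhx6, a factor of GABAergic neurons, was the most uneven of the 10 by coefficient of variation. It stood at 3.27, 0.950 and 0.616 CPM with vehicle and at 0.849, 0.986, 4.80 and 0.329 CPM with EB. Vehicle 1 and EB 3 were high and the other libraries were near or below 1 CPM, so the split did not follow treatment. The coefficient of variation was 89.6% within vehicle and 118% within EB, above 98% and 99.5% of the 200 genes nearest in level. Counts were 8 to 114 in a library, and the log2 difference of 0.10 ± 0.87 (SE) became −1.14 without EB 3 and 1.12 without vehicle 1.

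Lhx9, a close relative of Lhx2 with roles in thalamus and hypothalamus, had 26 to 77 counts in a library. It stood at 2.02, 2.31 and 1.67 CPM with vehicle and at 1.67, 1.63, 3.24 and 1.07 CPM with EB, and EB held both the highest and the lowest value. The log2 difference was −0.08 ± 0.39.

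Among the LIM-only genes, Lmo3 and Lmo4 were abundant and Lmo1 and Lmo2 scarce. Lmo3, a neuronal LIM-only gene, stood at 98.8, 72.4 and 85.4 CPM with vehicle and at 67.7, 69.5, 69.1 and 72.3 CPM with EB. Vehicle 2 and EB 4 all but met. The means were 85.5 ± 13.2 and 69.6 ± 1.95 CPM (SD, n = 3 and n = 4), a log2 difference of −0.30 ± 0.10. The 4 EB mice were unusually alike, with a coefficient of variation of 2.80% that was above only 5% of the 200 genes nearest in level, whereas that of the vehicle mice, 15.4%, was above 93%. Lmo3 was not called with all libraries, and without vehicle 2, its lowest vehicle library, it was (log2 −0.40). Without vehicle 1, its highest library, the log2 difference was −0.18, and it was not called.

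Lmo4, a LIM-only gene with wide expression in brain, stood at 36.7, 32.1 and 28.4 CPM with vehicle and at 31.5, 27.2, 31.7 and 33.0 CPM with EB. Its groups overlapped almost fully, with a log2 difference of −0.07 ± 0.11. Lmo1, the nearest relative of Lmo3, stood at 1.32, 1.49 and 1.19 CPM with vehicle and at 1.99, 1.23, 0.506 and 2.18 CPM with EB. The vehicle mice lay inside the EB range, and the log2 difference was 0.15 ± 0.47 on 12 to 61 counts.

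Lmo2, which acts in blood formation and in vessels, had the largest positive estimate of the 10. It stood at 3.65, 2.88 and 3.61 CPM with vehicle and at 4.61, 4.71, 5.94 and 2.76 CPM with EB. EB 1 to 3 were above every vehicle mouse and EB 4 was below all of them, with a log2 difference of 0.42 ± 0.27. The 12 endothelial markers summed to 119 to 166 CPM with vehicle and 99.3 to 129 CPM with EB. The 5 blood markers summed to 5.55 to 32.7 and 6.91 to 15.7 CPM. EB 3, the highest library for Lmo2, was the lowest for the endothelial sum. EdgeR called 0 of the 12 endothelial markers (5 at an unadjusted p under 0.05, 4 of them lower; DESeq2 called 2 lower and limma-voom 0) and 0 of the 3 tested blood markers (0 at an unadjusted p under 0.05; DESeq2 and limma-voom called 0). Their part in the Lmo2 values was not tested.

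The cofactors were well expressed in every mouse. Ldb1, the widely used LIM-domain-binding protein, stood at 33.9, 41.2 and 32.6 CPM with vehicle and at 38.3, 35.1, 41.3 and 38.3 CPM with EB, a log2 difference of 0.09 ± 0.11. Ldb2, its paralog, stood at 102.9, 72.8 and 97.7 CPM with vehicle and at 80.3, 89.5, 78.3 and 76.6 CPM with EB, a log2 difference of −0.17 ± 0.11. The groups of both genes overlapped. Vehicle 2 was the highest vehicle mouse for Isl1 and Ldb1 and the lowest for Ldb2 and Lmo3. Ldb1 shares some annotated exon sequence with Pprc1 on the opposite strand, 2.75% of its 50-base stretches, and whether counting used strand is not given in the sources used here. Isl1, Lhx2, Ldb2 and the 4 LIM-only genes shared 0 such stretches with transcripts of other genes in GENCODE, and Lhx6 and Lhx9 shared 1.59% and 0.137%.

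**Figure D2:**
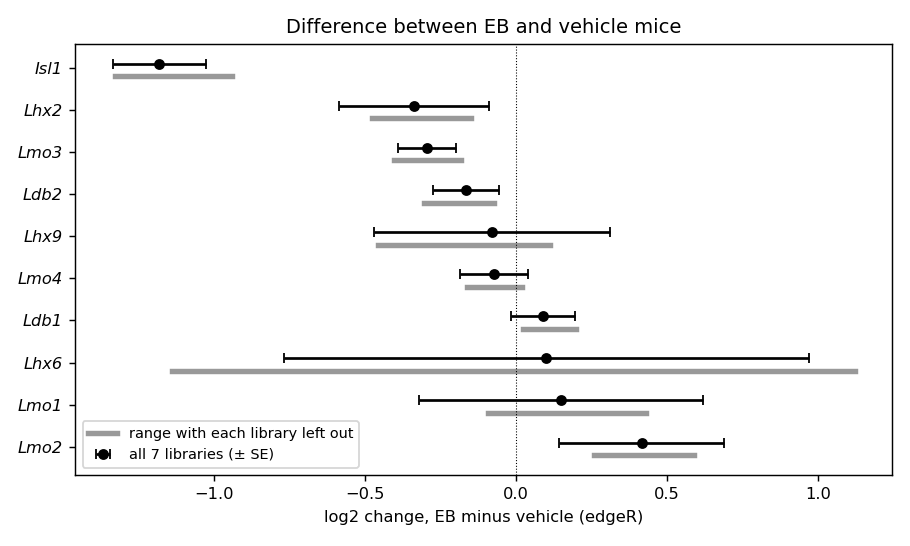
Log2 difference between EB and vehicle mice for each gene (point ± SE, edgeR on all 7 libraries), with a grey bar for the range of estimates when each library is left out in turn. Isl1 keeps a range of −1.33 to −0.94, while the bars of Lhx6, Lhx9, Lmo1 and Lmo4 cross 0.

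Levels of different genes were compared per length, as RPKM (CPM per kilobase of merged GENCODE exons). With vehicle the order was Ldb2 at 27.3 ± 4.84 RPKM, Isl1 at 16.99 ± 4.59, Lmo3 at 16.7 ± 2.57, Lmo4 at 9.18 ± 1.18 and Ldb1 at 7.80 ± 1.01 (SD, n = 3). The ranges of Ldb2 and Isl1 just met, those of Isl1 and Lmo3 overlapped, and so did those of Lmo4 and Ldb1. Below them came Lmo2 at 1.56, Lhx2 at 1.23, Lmo1 at 0.859, Lhx6 at 0.335 and Lhx9 at 0.211 RPKM, where Lmo2 overlapped Lhx2 and Lhx6 overlapped Lhx9. With EB, Isl1 stood at 7.498 ± 0.958 RPKM (SD, n = 4), behind Ldb2 at 24.3, Lmo3 at 13.6, Lmo4 at 8.73 and Ldb1 at 8.30 RPKM. Its EB range of 6.63 to 8.53 RPKM overlapped that of Ldb1, 7.62 to 8.96 RPKM, and that of Lmo4, 7.70 to 9.34 RPKM. The means of the other 9 genes had the same order in both groups, but with EB the ranges of many neighbours overlapped. Lmo1, at 0.326 to 1.41 RPKM with EB, overlapped Lmo2, Lhx2, Lhx6 and Lhx9, Lhx6 overlapped Lhx2 and Lhx9, and Lmo4 overlapped Ldb1.

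Isl1 made up most of the LIM-homeodomain RNA. Of the summed RPKM of all 12 mouse LIM-homeodomain genes it held 79.7%, 91.7% and 87.0% in vehicle 1 to 3, and 72.7%, 78.1%, 70.7% and 72.7% in EB 1 to 4. The 4 LIM-homeodomain members together came to 18.8 ± 4.21 RPKM with vehicle (SD, n = 3) and 9.03 ± 1.22 RPKM with EB (SD, n = 4). The 4 LIM-only genes came to 28.3 ± 3.48 and 25.3 ± 0.801 RPKM, and the 2 Ldb genes to 35.1 ± 3.89 and 32.6 ± 1.32 RPKM. The ratio of Isl1 to summed Ldb RPKM was 0.352, 0.721 and 0.421 in the vehicle mice and 0.208 to 0.250 in the EB mice, without overlap. The ratio of LIM-only to Ldb RPKM ran from 0.745 to 0.842 with vehicle and from 0.702 to 0.834 with EB. Ldb2 supplied 70.9% to 80.7% of the Ldb RPKM with vehicle and 72.4% to 77.9% with EB. All of these come from the contrast that chose the genes and carry no test.

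**Figure D3:**
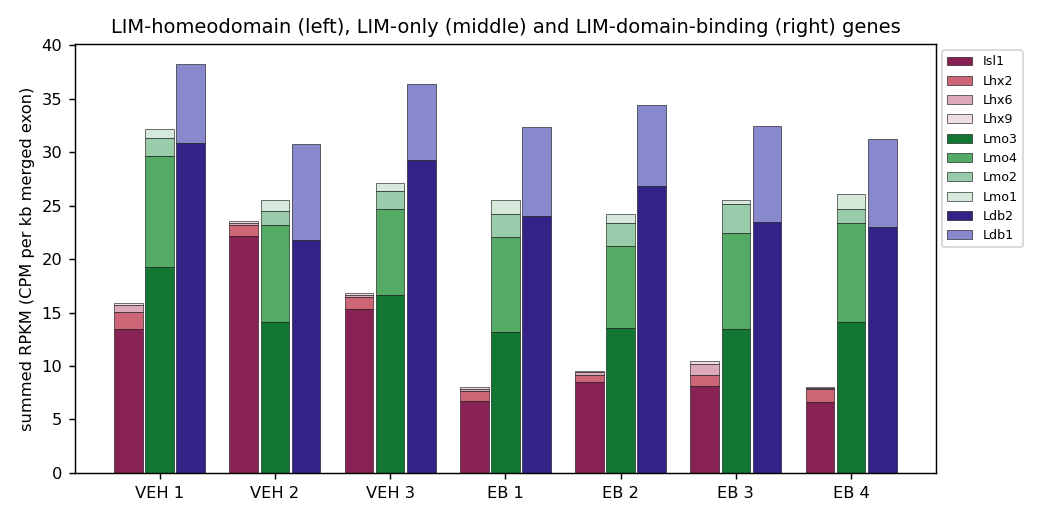
Summed RPKM in each library of the 4 LIM-homeodomain members (left bar, red), the 4 LIM-only genes (middle bar, green) and the 2 Ldb genes (right bar, blue), divided by gene. The left bars reach 15.9 to 23.6 RPKM in the vehicle mice and 8.01 to 10.5 RPKM in the EB mice, and the Isl1 block carries most of each.

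Genes of the same families outside the 10 were then tested in the same edgeR fit. Of the 8 other LIM-homeodomain genes, 6 were too low to test, with at most 22 counts in a library (Lhx3, in EB 4), and Isl2 and Lhx4 had 1 count over all 7 libraries each. Neither of the 2 tested was called by edgeR, DESeq2 or limma-voom (0 calls), and 1, Lhx1, had an unadjusted edgeR p under 0.05. Lhx1 had 7, 2 and 1 counts with vehicle and 16, 7, 26 and 19 counts with EB. Lhx5, its close relative, had 44, 38 and 30 counts with vehicle and 84, 97, 22 and 37 with EB, an uneven group (log2 0.54 ± 0.43).

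Partners of the Ldb complexes gave no call. Rlim, the ubiquitin ligase that acts on Ldb proteins, stood at 359 ± 29.5 CPM in vehicle mice and 365 ± 13.2 CPM in EB mice. The single-stranded-DNA-binding proteins Ssbp2 and Ssbp3, which steady Ldb1, had log2 differences of −0.13 ± 0.08 and −0.04 ± 0.10. Of 11 partners, which also include bHLH and GATA factors, 10 were tested. EdgeR called 0 of them, with 0 at an unadjusted p under 0.05 and 0 called by DESeq2 or limma-voom, and their median log2 difference was −0.03. The scarcer partners had wide errors, with log2 differences of 1.06 ± 0.81 for Tal1 and −0.67 ± 0.92 for Lyl1, both bHLH factors, and −0.27 ± 0.48 for Gata2.

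Among 30 LIM-domain proteins that act mainly on the cytoskeleton, all 30 were tested and 1 was called. Mical2, an enzyme that oxidises actin, stood at 59.0, 48.4 and 65.9 CPM with vehicle and at 109, 103, 82.5 and 107 CPM with EB. It rose from 57.8 ± 8.79 to 100.3 ± 12.1 CPM (log2 0.80 ± 0.12, adjusted p = 0.00464 by edgeR), with all 4 EB mice above all 3 vehicle mice, and kept its call in each alternative run. EdgeR called 0 lower in this list, with 1 lower at an unadjusted p under 0.05 and 0 lower by DESeq2 and limma-voom. Over all genes 0.712% were called higher. Limk1, a kinase that inactivates the actin-severing protein cofilin, picked after its value was seen, had a log2 difference of 0.50 ± 0.16 (adjusted p = 0.258 by edgeR, and 0.0357 without vehicle 2). The median log2 difference of the list was 0.02.

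Of 33 other homeobox genes of the hypothalamus, 29 were tested. The estimate was negative for 18 of the 29, with a median log2 difference of −0.14, beside 51.7% negative and a median of −0.01 over all tested genes. EdgeR gave 0 calls among the 29. Unadjusted, 7 had a p under 0.05, all lower with EB, against 8.54% of all tested genes in either direction. DESeq2 called 2 lower and limma-voom 0. Among the 7 were Nkx2-1, Nkx2-2 and Nkx2-4, named after their values were seen. Nkx2-2 stood at 8.16, 15.8 and 9.42 CPM with vehicle and at 4.74, 7.61, 6.28 and 4.73 CPM with EB (log2 −0.93 ± 0.25, adjusted p = 0.15 by edgeR, and 0.0194 by DESeq2). The groups did not overlap, and vehicle 2 was again the highest. Nkx2-1, a homeobox gene needed to form the VMH and arcuate nucleus, had a log2 difference of −0.56 ± 0.21 (adjusted p = 0.485 by edgeR, and 0.0467 without EB 3).

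A list of arcuate genes taken as downstream of Isl1 gave no call. Whether each of them depends on Isl1 was not tested. EdgeR called 0 of 9 tested out of 10 (1 at an unadjusted p under 0.05, Pomc; DESeq2 and limma-voom called 0), and 1 of the 9 had a negative estimate. Their median log2 difference was 0.14. Pomc, the melanocortin precursor, stood at 17.7, 13.6 and 23.0 CPM with vehicle and at 35.8, 17.2, 24.4 and 37.0 CPM with EB, and its groups overlapped (log2 0.66 ± 0.28, adjusted p = 0.554 by edgeR). Sst, somatostatin, stood at 95.4, 93.2 and 129 CPM with vehicle and at 107, 113, 119 and 109 CPM with EB, with a log2 difference of 0.08 ± 0.10. Kiss1 was at most 0.126 CPM in a library.

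Isl1 was set beside markers of the tissue and of its neighbours. The 13 arcuate markers, of which Prlr, the prolactin receptor, gave most of the CPM, summed to 655 to 753 CPM with vehicle and 624 to 708 CPM with EB. The 7 GABAergic markers summed to 573 to 845 and 716 to 829.4 CPM, and the 9 VMH markers to 2280 to 2505 and 2398 to 2510 CPM. Each of these sums overlapped between groups. Vehicle 2 was the highest library for the arcuate sum, for the 13 markers of amygdala, striatum and cortex (326.7 CPM against 230.3 to 293.6 in the others) and for the 9 markers of thalamus and habenula (876 CPM against 563 to 662). With the mean log2 level of the arcuate markers as a covariate the Isl1 difference was −1.12. The arcuate markers did not move together. In vehicle 2, Prlr (544 CPM) and Ghsr (47.3 CPM) had their highest level of the 7 libraries. Pomc (13.6 CPM), Agrp (0.253 CPM) and Th (6.87 CPM) were among those with their lowest level there. That covariate therefore cannot be read as a measure of arcuate tissue. The sum of the 9 microglia markers, like Isl1, did not overlap between groups, at 164 to 174 CPM with vehicle and 145 to 161 CPM with EB. P2ry12 was the only marker of this list whose groups did not overlap by itself, at 40.3 to 42.1 and 27.7 to 34.7 CPM. The estimate was negative for 7 of the 9 and positive for Tmem119 and Csf1r. Sums ran from 5537 to 6193 and 4780 to 6066 CPM for 7 astrocyte markers and from 899 to 977 and 776 to 949 CPM for 8 oligodendrocyte markers. With its main settings edgeR called 0 markers in any of the 12 lists. Unadjusted p under 0.05 was reached by 3 VMH, 3 arcuate, 2 amygdala, striatum and cortex, 5 endothelial and 1 microglia markers, and by 0 of the other lists. DESeq2 called Slc17a6 higher, its lower calls included Ghsr, Flt1, Abcb1a and P2ry12, and limma-voom called 0. The part of the marked cell types in the Isl1 values was not tested.

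The tissue and treatment labels were checked on named genes. Levels of Esr1, which encodes estrogen receptor alpha, averaged 223 ± 81.6 CPM in the vehicle mice and 192 ± 30.2 CPM in the EB mice. For Slc17a6, the glutamate transporter of VMH neurons, they averaged 499.6 ± 61.3 and 633 ± 55.6 CPM (adjusted p = 0.132 by edgeR), whereas Nr5a1, a defining VMH factor, was low at 2.03 ± 1.02 and 2.52 ± 1.11 CPM. Esr1 was at 317 CPM in vehicle 2, against 160 to 231 CPM in the other libraries. Nr5a1 was at 1.14 CPM in vehicle 2, its lowest vehicle value, and lower still in EB 3 at 0.927 CPM. Pgr, an estrogen receptor target, rose from 82.2 ± 6.70 to 207 ± 17.6 CPM (adjusted p = 3.4e-06 by edgeR).

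**Figure D4:**
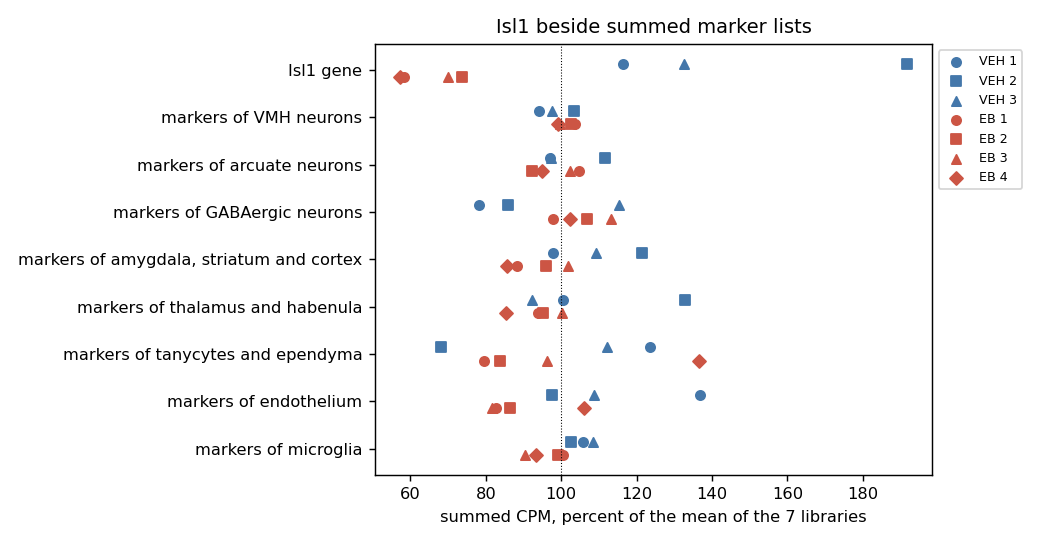
Isl1 and the summed CPM of 8 marker lists in each library, as a percentage of the mean over the 7 libraries, in blue for vehicle and red for EB with 1 symbol per mouse. Isl1 is the row whose groups lie farthest apart, but it is a single gene beside sums, and its values in this contrast selected the family. Vehicle 2 (blue square) is the highest library for Isl1, for the arcuate sum and for the amygdala and thalamus sums.

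The 5 genes with levels most like those of Isl1 were found by Pearson correlation of log2 CPM over the 7 libraries, among all tested genes with a mean of at least 1 CPM (12944 genes, predicted gene models left out). They were Map2k6, a kinase of the p38 pathway (r = 0.998), Btbd3, which shapes dendrites (0.990), Nhs, an actin-remodelling protein (0.983), Rxfp3, the relaxin-3 receptor (0.983), and Tmbim1, a membrane protein (0.983). These are the extremes of many genes over 7 points in 2 treatment groups, and they share the libraries and their scaling. After each group's own mean was removed, r with Isl1 was 0.986 for Map2k6, 0.939 for Btbd3, 0.900 for Nhs, 0.897 for Rxfp3 and 0.895 for Tmbim1, with vehicle 2 the highest in each.

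Map2k6 stood at 11.5, 14.4 and 11.8 CPM with vehicle and at 7.94, 9.24, 8.89 and 7.94 CPM with EB, so that its order over the mice nearly matched that of Isl1. Btbd3 stood at 332 ± 62.3 CPM in vehicle mice (SD, n = 3) and 199 ± 18.6 CPM in EB mice (SD, n = 4), a log2 difference of −0.74 ± 0.11. Rxfp3 had a log2 difference of −1.39 ± 0.22, Nhs of −0.66 ± 0.11, Map2k6 of −0.57 ± 0.15 and Tmbim1 of −0.45 ± 0.11. EdgeR called Btbd3, Nhs and Rxfp3 lower. It did not call Map2k6 (adjusted p = 0.1525 by edgeR) or Tmbim1 (adjusted p = 0.103 by edgeR). Being chosen for likeness to Isl1, all 5 genes had to be lower with EB. None of the other 9 genes in the set came near these values: over the 7 libraries r with Isl1 was highest for Lmo3, at 0.49, and with group means removed it was −0.84 for Lmo3, −0.75 for Lhx2 and 0.60 for Ldb1. Of the genomic neighbours of Isl1, Parp8 stood at 48.0 ± 3.07 CPM in vehicle mice and 48.2 ± 2.25 CPM in EB mice, and Itga1 had a log2 difference of −0.54 ± 0.27 (adjusted p = 0.652 by edgeR).

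**Figure D5:**
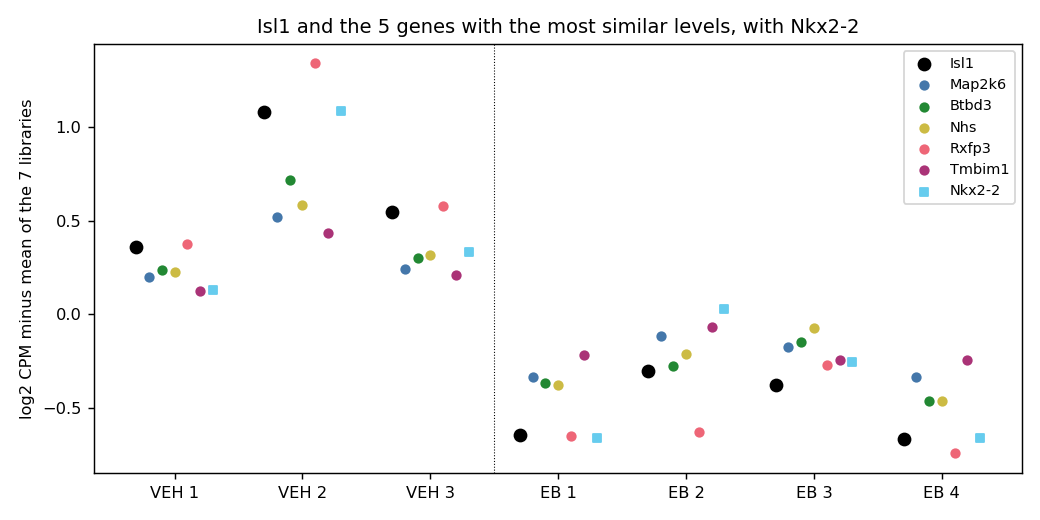
Log2 CPM of Isl1 (black), of the 5 genes with the highest correlation to it and of Nkx2-2 (squares) in each library, each gene set to its mean over the 7 libraries, with a dotted line between vehicle and EB mice. In all 7 genes vehicle 2 is the highest library, and Isl1, Rxfp3 and Nkx2-2 span the widest range.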

How the data were processed

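RNA of 7 hand-dissected VMHvl samples, 15 ng each, went into libraries made with the Trio kit of Tecan/NuGEN (stated in the labels' protocols). For each library the deposited file holds raw counts by gene symbol. HISAT2, HTSeq and DESeq2 and the build mm10 are named, per the submitters' processing notes; versions, annotation, strand use and the handling of multiply mapped reads: not given in the sources used here. The 10 genes and all gene lists were chosen with earlier results of these data known.

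Genes were kept by filterByExpr (minimum count 10; 18387 of 31222 genes with any count), scaled by TMM, then fitted in edgeR 4.0.16 (estimateDisp, robust glmQLFit, glmQLFTest; no covariate) in R 4.3.3. Calls needed an adjusted p (Benjamini-Hochberg, every tested gene) under 0.05, by which 131 were higher and 38 lower. SE is the absolute log2 change over the root of F. The common biological coefficient of variation was 22.3%. RPKM used merged exon lengths of GENCODE M21 (GRCm38, the assembly also named mm10), which may differ from the authors' annotation. Alternatives were DESeq2 1.42.0, limma-voom (limma 3.58.1), 2 scalings, no filter, an arcuate covariate and each library left out. The fits were tested on simulated data. Named genes outside the 10 included those called in a fixed list, up to 4 a list, the 5 most like Isl1, and 5 tissue checks. Some others are marked as picked after their values were seen. The rest, such as Ldb partners, single markers and the neighbours of Isl1, are outside this rule and carry no mark. Replicate pairs differed by 17.02 to 166 chi-square units per degree of freedom, so no library was counted as a repeat of another. The highest values were those of vehicle 1 against vehicle 2 (166) and vehicle 3 (156), while vehicle 2 against vehicle 3 gave 19.8. Replicate numbers follow the order of deposit and only name mice. Figures were drawn with matplotlib 3.10.9. Some genes of the lists are not reported here by name.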

Additional observations from a re-analysis of the deposited data

Results flagged for a closer look

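In 2 of 21 genes examined, 1 EB mouse stood far from the other 3 by Dixon's criterion, which chance alone meets in about 1 of 20 groups. Lhx6 was at 4.80 CPM in EB 3, where the other EB mice were at 0.329 to 0.986 CPM. Tmbim1 was at 25.4 CPM in EB 2, where the others were at 22.4 to 22.8 CPM.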

How the results depend on the processing

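No paired analysis was possible because the replicate numbers used here follow the order of deposit and the labels tie no vehicle mouse to an EB mouse. Isl1 was called lower in all 13 alternatives, with log2 differences from −0.94 to −1.33. Over all genes, the 131 higher and 38 lower calls became 232 and 119 by DESeq2. Lower calls became 62 with no filter on low counts and 25 with the arcuate covariate. Leaving out 1 library gave 72 to 132 higher and 19 to 37 lower calls; 72 and 22 were without vehicle 3, 84 and 19 without EB 1, and lower calls were 25 without EB 2. Of the 10 genes, 1 to 2 were called lower and 0 higher with 1 library left out, Lmo3 joining without vehicle 2. Genes of the 5 other fixed lists gave 1 to 2 higher calls (Limk1 joining without vehicle 2) and 0 to 1 lower calls (Nkx2-1 without EB 3), with 2 lower by DESeq2 (Nkx2-2 among them) and 1 with no filter (Nkx2-2). Estimates that changed sign were all uncalled. Lhx6 was −0.33 with the arcuate covariate, −0.25 by limma-voom, and with 1 library left out ran from −1.14 (EB 3) to 1.12 (vehicle 1), with −0.18 without vehicle 2 and −0.28 without vehicle 3. Lmo1 was −0.026 by limma-voom and ran from −0.092 (without EB 4) to 0.43 (EB 3), with −0.03 without EB 1. Lhx9 ran from −0.46 (EB 3) to 0.11 (EB 4), with 0.04 without vehicle 2, Lmo4 from −0.16 (vehicle 3) to 0.020 (vehicle 1), and Esr1 from −0.38 (vehicle 3) to 0.13 (vehicle 2). Rxfp3 lost its call with no filter, with the arcuate covariate and without EB 1, EB 2 or EB 4. Slc17a6, not called in the main run, was called higher by DESeq2. EdgeR also called it higher with no filter (adjusted p = 0.0414) and without vehicle 2 (adjusted p = 0.03998). Map2k6 and Tmbim1 were called lower by DESeq2 alone. The cause of these changes was not tested. Counts of 8 to 114 limit what can be said of Lhx6, Lhx9 and Lmo1.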

Other observations

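Several rare transcription factor genes had an uneven spread over mice that did not follow treatment, and they were picked out after their values were seen. Lmx1a, a LIM-homeodomain factor, had 8, 1 and 12 counts in vehicle 1 to 3 and 2, 2, 16 and 2 in EB 1 to 4. Lhx3, which acts with Isl1 in motor neurons and in the pituitary, had 22 counts in EB 4 and 1 to 8 in the other libraries. The 8 pituitary markers summed to 29.4 CPM in EB 4, against 2.84 to 14.8 CPM in the others. Of the EB 4 sum, Cga gave 18.4 CPM and Tshb 9.14 CPM, while Prl, Gh and Pou1f1 were at 0 there. The part of pituitary cells in the Lhx3 counts was not tested.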
